A study of Homo sapiens with 17 samples.

Results

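A set of 10 cytosolic and mitochondrial heat shock genes, HSPA1A, HSPA1B, HSPA8, HSPH1, DNAJB1, HSP90AA1, HSPB1, HSPD1, HSPE1 and BAG3, was followed in MDA-MB-231 cells during 24 h with TRAIL. They were taken by symbol from a table of 58870 gene entries, and all 10 were among the 15365 genes with enough counts to be tested. MDA-MB-231 is a long-established line of human triple-negative breast cancer cells, labelled here as mesenchymal and basal B. TRAIL, a TNF family cytokine, binds death receptors and can trigger apoptosis, and every library carries the same TRAIL label with a dose of 45 nM, described as suboptimal. RNA came from cells after 0, 1, 3, 6, 12 and 24 h, with 3 libraries at each time except 1 h, which has 2. No untreated culture at a later time was analysed here, so time with TRAIL and time in culture cannot be told apart.

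Heat shock proteins are chaperones that bind unfolded or partly folded proteins. In the cytosol HSP70 proteins work in cycles set by J-domain partners, which deliver clients and drive ATP hydrolysis, and by nucleotide exchange factors, which release them, while HSP90 completes the folding of signalling proteins such as kinases and receptors. In the mitochondrial matrix, HSPD1 and its lid HSPE1 form a closed folding chamber. The transcription factor HSF1 binds heat shock elements, inverted repeats of the unit nGAAn, ahead of many of these genes. In cancer cells the inducible HSP70 proteins and HSPB1 are known for opposing apoptosis.

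The elements themselves are shown here because 7 of the 10 genes hold one within 250 bases ahead of a RefSeq start (GRCh38.p14). The motif searched was GAANNTTC or TTCNNGAA, 2 adjoining inverted units, each its own reverse complement, so that both strands were read at once. All 10 genes matched the RefSeq table, with 14 start sites. Each line below gives the gene's own strand from 5′ to 3′, with the motif in capitals.
HSPA1A: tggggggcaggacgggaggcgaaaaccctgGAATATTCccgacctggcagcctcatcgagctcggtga
HSPA1B: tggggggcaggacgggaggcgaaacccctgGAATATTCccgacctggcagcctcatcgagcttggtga
HSPA8, farther element: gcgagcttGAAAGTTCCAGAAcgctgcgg
HSPA8, nearer element: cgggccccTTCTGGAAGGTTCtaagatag
DNAJB1: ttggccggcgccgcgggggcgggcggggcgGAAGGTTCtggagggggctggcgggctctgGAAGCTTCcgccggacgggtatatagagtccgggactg
HSP90AA1: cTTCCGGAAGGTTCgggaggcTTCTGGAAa
HSPB1: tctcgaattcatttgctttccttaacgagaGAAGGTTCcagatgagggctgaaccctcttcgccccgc
HSPD1: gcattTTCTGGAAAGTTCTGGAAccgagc

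These stretches lie at chr6:31815407-31815474 (+) for HSPA1A, chr6:31827603-31827670 (+) for HSPA1B, and chr11:123062346-123062374 and chr11:123062171-123062199 (−) for HSPA8. The others lie at chr19:14518407-14518504 (−) for DNAJB1, chr14:102087104-102087133 (−) for HSP90AA1, chr7:76302461-76302528 (+) for HSPB1 and chr2:197500062-197500090 (−) for HSPD1. The motif was found ahead of 14% of the 27305 genes in the RefSeq table and ahead of 14 of 43 other heat shock genes (32.6%). A longer form of 3 adjoining units, read on both strands and containing both shorter motifs, was found ahead of HSPA8, HSP90AA1 and HSPD1. It was found ahead of 4 of 43 other heat shock genes (9.3%) and of 0.557% of all genes. No match to these letters was found in the windows of HSPH1, HSPE1 and BAG3. The HSPD1 element also lies ahead of the RefSeq start of HSPE1, but outside its window. The stretches of HSPA1A and HSPA1B differ in few letters, and the pair of genes encodes near-identical proteins. On GRCh38, by the GENCODE annotation, HSPA1A spans chr6:31815464-31817946, HSPA1B chr6:31827735-31830255, HSPA8 chr11:123057489-123063230, HSPH1 chr13:31134974-31162388 and DNAJB1 chr19:14514770-14529770. HSP90AA1 spans chr14:102080738-102139699, HSPB1 chr7:76302544-76304295, HSPD1 chr2:197486581-197516737, HSPE1 chr2:197499994-197503457 and BAG3 chr10:119651370-119677819. All 10 are protein-coding genes. A match to the letters of a motif is a description of the window and was not tested for binding.

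Levels are given as CPM, counts relative to the scaled size of each library. Read depth was 13731520 to 19234924 expected counts per library, and the 10 genes had between 1170 (HSPA1A) and 60379 (HSPA8) counts in a library. The markers of mesenchymal basal B cells were high, with medians of 3350 CPM for VIM and 1296 CPM for CD44, while ESR1 had at most 2 counts and PGR at most 1 count in any library. ERBB2 and GATA3 were low but present, at medians of 62.8 and 10.7 CPM. Of the markers of other cells, CD3E and HBB were at 0 in all 17 libraries and DCN had at most 1 count. CD68 had a median of 74.4 CPM and COL1A1 10.1 CPM. The share of counts from mitochondrially encoded genes moved with time, from 6.75% ± 1.46 (SD, n = 3) at 0 h and 8.59% ± 0.521 (n = 3) at 3 h to 4.49% ± 0.830 (n = 3) at 6 h and 3.90% ± 0.240 (n = 3) at 24 h. The dependence on gene length moved too, for log2 CPM centred on each gene's mean over the 17 libraries. The mean slope per doubling of length was -0.037 ± 0.028 (SD, n = 3) at 0 h and -0.099 ± 0.040 at 3 h. It was 0.068 ± 0.049 at 6 h and 0.097 ± 0.063 at 24 h. The range at 0 h, -0.066 to -0.011, overlapped that at 3 h, -0.143 to -0.063. These slopes are relative to the average of the libraries. The part of the mitochondrial share in the results below was not tested, and values with the length and GC trends of each library removed are given where a call changed, or a called value moved by over 1.5 times. The labels do not say whether the libraries of a time came from separate cultures, so p-values measure only the spread between these libraries. RNA was taken from whole cultures, so a change in the number of cells that express a gene and a change in RNA per cell cannot be told apart.

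At 0 h the genes differed widely in level per kilobase of transcript, as CPM per kb. A single annotated transcript length was used for each gene, and the SDs do not cover that choice. HSP90AA1 stood at 574 ± 26.6 (SD, n = 3) and HSPA8 at 568 ± 89.0, a pair whose means differed by less than their SDs. The mitochondrial genes followed, with HSPD1 at 305 ± 5.18 and HSPE1 at 302 ± 25.0 CPM per kb, again within their SDs. HSPB1 had 192 ± 15.5, DNAJB1 79.0 ± 0.343 and HSPA1B 73.1 ± 0.785 CPM per kb. BAG3 at 41.0 ± 0.411, HSPH1 at 35.0 ± 2.00 and HSPA1A at 33.9 ± 1.15 CPM per kb were lowest, and the means of HSPH1 and HSPA1A lay within their SDs. At 6 h HSPA8, at 1219 ± 167 CPM per kb, was above HSP90AA1 at 820 ± 50.04, and HSPA1B, at 149 ± 3.06, was above DNAJB1 at 111 ± 3.05. All 10 genes together took 0.535% ± 0.0368 (SD, n = 3) of all counts at 0 h, against 0.827% ± 0.0593 at 6 h and later 0.686% ± 0.00247 at 24 h.

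**Figure D1:**
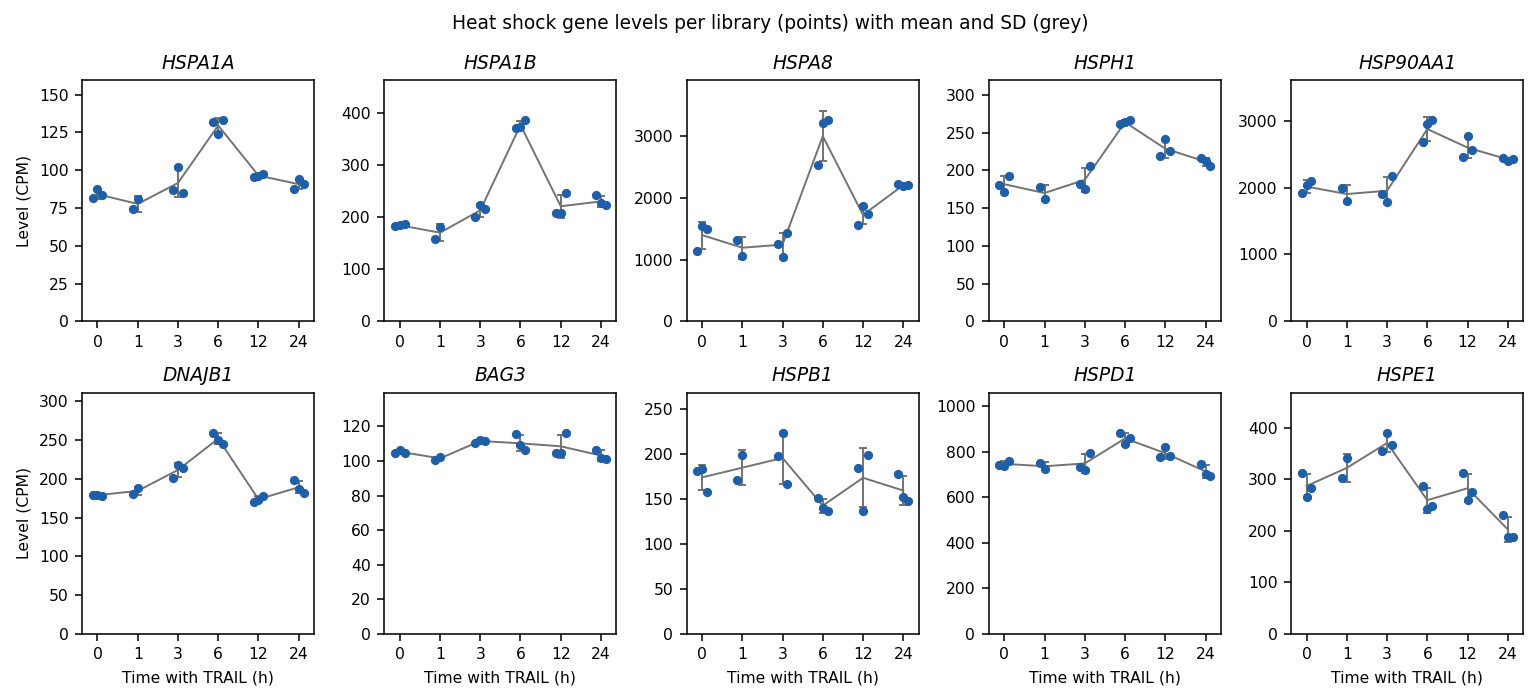
Levels of the 10 genes in CPM (counts relative to library size, vertical axes starting at 0) at each time in hours, spaced evenly rather than to scale; points are libraries and grey lines with bars are means ± SD. HSPA8 reached a mean of 3003 CPM at 6 h from 1398 CPM at 0 h, whereas BAG3 had means between 102 and 112 CPM at every time.

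At 6 h 7 of the 10 genes were higher than at 0 h: HSPA8, HSPA1B, HSPA1A, HSPH1, HSP90AA1, DNAJB1 and HSPD1. Before that, 3 genes were higher at 3 h (DNAJB1, HSPA1B and HSPE1) and none differed at 1 h. The 12 h comparison had 3 genes above 0 h, and at 24 h 4 were above and HSPE1 was below. A gene was called where edgeR's quasi-likelihood test gave an adjusted p below 0.05 over all 15365 genes, and all adjusted p-values here are from that test unless another tool is named. By this rule 16.9% of all genes were called higher at 6 h and 13.2% lower. The median log2 fold change of the 10 genes at 6 h was 0.50, against -0.022 for all genes tested. In single libraries, 7 of the 10 had every 6 h value above every 0 h value, against 22.7% of all genes, and 1 had every value below, against 21.4%.

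HSPA8, the constitutive HSP70 of the cytosol, had 1147, 1551 and 1497 CPM in the 3 libraries at 0 h and 2529, 3220 and 3258 CPM at 6 h. Replicate 1 was the lowest library at both times, and the lowest 6 h value lay far above the highest 0 h value. The log2 fold change was 1.10 ± 0.133 (SE), a 2.15-fold rise (adjusted p = 3.5e-05). The 1 h libraries had 1322 and 1066 CPM and the 3 h libraries 1255, 1048 and 1428 CPM, which overlapped the 0 h values (log2 fold change at 3 h -0.17, adjusted p = 0.404). Between 3 h and 6 h HSPA8 rose by 1.27 on the log2 scale (adjusted p = 1.0e-05), and from 6 h to 12 h it fell by 0.80 (adjusted p = 6.2e-04). The 12 h values of 1566, 1871 and 1741 CPM were all above those at 0 h, but the difference of 0.30 did not pass the test (adjusted p = 0.144). At 24 h the libraries had 2219, 2191 and 2214 CPM, close to each other and above all 0 h libraries, and HSPA8 was again higher (0.66 ± 0.132, adjusted p = 0.00151). The step from 12 h to 24 h, 0.36, was not called (adjusted p = 0.0874).

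HSPA1B, one of the stress-inducible HSP70 genes, had 182, 185 and 186 CPM at 0 h and 371, 373 and 385 CPM at 6 h. The 3 libraries of each time lay within a narrow range, with a wide gap between the times. The log2 fold change of 1.03 ± 0.0682 corresponded to 2.04-fold (adjusted p = 5.7e-09), and over all times together HSPA1B had the 47th smallest p of the 15365 genes. HSPA8 and HSPA1B were among the genes called at least 2-fold higher at 6 h, which made up 0.41% of all genes tested. HSPA1B had 159 and 181 CPM at 1 h, 200, 224 and 215 CPM at 3 h, 208, 207 and 246 CPM at 12 h, and 241, 226 and 223 CPM at 24 h. Every value from 3 h on was above the 0 h values. Between 3 h and 6 h HSPA1B rose by 0.82 (adjusted p = 1.6e-07), and between 6 h and 12 h it fell by 0.77 (adjusted p = 3.0e-07), on the log2 scale. Compared with 0 h it was higher by 0.26 at 12 h (adjusted p = 0.0166) and by 0.32 at 24 h (adjusted p = 0.00152).

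HSPA1A, the near-identical neighbour of HSPA1B on chromosome 6, had 81.7, 87.3 and 83.3 CPM at 0 h and 132, 124 and 133 CPM at 6 h. The groups did not overlap, and the log2 fold change was 0.62 ± 0.0654 (adjusted p = 1.9e-06). It had 87.1, 102 and 85.0 CPM at 3 h, 95.7, 95.8 and 97.7 CPM at 12 h and 87.4, 93.9 and 90.8 CPM at 24 h. The 12 h libraries were all above those at 0 h, by 0.20, just short of the threshold (adjusted p = 0.0545) and past it under 8 of 30 alternatives, among them the removal of length and GC trends (0.28, adjusted p = 4.2e-04), and the 24 h difference was 0.11 (adjusted p = 0.207). The division of reads between the genes of this pair is uncertain: the expected counts of HSPA1A were not whole in 16 of 17 libraries and those of HSPA1B in all 17. With the counts of both summed, the log2 fold change was 0.18 at 3 h (adjusted p = 0.0490), 0.92 at 6 h (adjusted p = 7.2e-09), 0.24 at 12 h (adjusted p = 0.0158) and 0.26 at 24 h (adjusted p = 0.00388). The ratio of HSPA1B to HSPA1A counts was 2.19 ± 0.0652 (SD, n = 3) at 0 h, 2.91 ± 0.106 at 6 h and 2.54 ± 0.193 at 24 h. For both times the exact two-sided permutation test gave p = 0.1, the smallest that 3 against 3 libraries allow.

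HSPH1, the cytosolic HSP110 that acts as a nucleotide exchange factor of HSP70, had 180, 172 and 192 CPM at 0 h and 261, 264 and 266 CPM at 6 h. The 6 h libraries lay together above every 0 h library. It rose by 0.54 ± 0.0629 on the log2 scale (adjusted p = 6.9e-06). It had 182, 176 and 205 CPM at 3 h, 219, 242 and 225 CPM at 12 h and 216, 212 and 206 CPM at 24 h. The 12 and 24 h values were all above those at 0 h, by 0.33 (adjusted p = 0.00207) and 0.22 (adjusted p = 0.0109). At 3 h the difference was 0.046 (adjusted p = 0.654) as counted, and with the length and GC trends removed it was 0.12 and passed (adjusted p = 0.0439).

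HSP90AA1, the inducible cytosolic HSP90, had 1913, 2041 and 2095 CPM at 0 h and 2677, 2949 and 3006 CPM at 6 h. Its 2 groups did not overlap, and the log2 fold change was 0.51 ± 0.0738 (adjusted p = 6.8e-05). The expected counts of HSP90AA1 were not whole in 17 of 17 libraries, so the division of its reads with other entries is uncertain. The 1 h values were 2002 and 1807 CPM and the 3 h values 1909, 1782 and 2171 CPM, overlapping those at 0 h. The 12 h libraries had 2458, 2772 and 2567 CPM and the 24 h libraries 2437, 2403 and 2429 CPM, all above 0 h, by 0.37 (adjusted p = 0.00322) and 0.27 (adjusted p = 0.00917). Between 6 h and 12 h it changed by -0.15, which did not pass the test (adjusted p = 0.166), and by -0.17 with the length and GC trends removed, which did (adjusted p = 0.0115). HSPH1 and HSP90AA1 had the most similar courses of any pair among the 10 genes, with a root mean square difference of centred log2 CPM of 0.0636 over 17 libraries, against 0.738 for HSPA8 and HSPE1, the least similar pair.

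DNAJB1, the J-domain protein that stimulates HSP70's ATPase, had 179, 180 and 178 CPM at 0 h, 202, 218 and 214 CPM at 3 h and 259, 251 and 246 CPM at 6 h. Each of these times lay wholly above the one before. It was higher by 0.24 ± 0.0508 at 3 h (adjusted p = 0.00300) and by 0.49 ± 0.0505 at 6 h (adjusted p = 1.4e-06). At 12 h it had 170, 173 and 178 CPM, below all 6 h values, a fall of 0.54 on the log2 scale (adjusted p = 6.7e-07), and did not differ from 0 h by the test (-0.043, adjusted p = 0.627). The 24 h libraries had 198, 187 and 182 CPM, with a difference of 0.080 from 0 h (adjusted p = 0.226).

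BAG3, which exchanges HSP70's nucleotide and directs clients to selective autophagy, had 105, 107 and 105 CPM at 0 h and 115, 109 and 106 CPM at 6 h. These ranges overlapped, and the log2 fold change was 0.065 ± 0.0539 (adjusted p = 0.383). Across all times its libraries ran from 101 to 116 CPM, and it passed in none of the comparisons nor over all times together (adjusted p = 0.207). With the length and GC trends removed, its difference at 6 h was 0.12 and passed (adjusted p = 0.0319).

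HSPB1, the small heat shock protein that holds unfolded clients without ATP, had 181, 183 and 158 CPM at 0 h and 151, 140 and 137 CPM at 6 h. All 6 h libraries were below those at 0 h, but the log2 fold change of -0.29 ± 0.132 did not pass (adjusted p = 0.113). It was called lower under 3 of 31 alternatives: no filter, a fit of these 2 times, and without replicate 2 of 12 h. Its 3 h libraries had 197, 224 and 166 CPM, and it fell by 0.46 from 3 h to 6 h (adjusted p = 0.0118). That call rested on 1 library: without replicate 2 of 3 h, the value was -0.35 (adjusted p = 0.0695). HSPB1 is short, at 0.909 kb, and with the length and GC trends removed the differences were -0.064 from 3 h to 6 h (adjusted p = 0.342) and -0.039 from 0 h to 6 h (adjusted p = 0.606). In the same setting it was higher than at 0 h by 0.20 at 12 h (adjusted p = 0.00939) and by 0.21 at 24 h (adjusted p = 0.00290), where the values as counted were -0.0053 and -0.13. The direction of HSPB1 at 24 h therefore differed between these settings.

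The genes of the mitochondrial chaperonin took different courses. HSPD1, which forms its barrel, had 743, 738 and 762 CPM at 0 h, 884, 835 and 860 CPM at 6 h and 748, 701 and 694 CPM at 24 h. The 6 h libraries were above all at 0 h, and HSPD1 rose by 0.20 ± 0.0548 on the log2 scale (adjusted p = 0.00990). With upper-quartile scaling that value was 0.13 and did not pass (adjusted p = 0.0736). HSPE1, which forms the lid, had 312, 265 and 283 CPM at 0 h and 354, 390 and 367 CPM at 3 h. The 3 h libraries were the higher ones throughout, by 0.37 ± 0.0913 (adjusted p = 0.0100), and without replicate 2 of 0 h the value was 0.31 (adjusted p = 0.0578). The 6 h libraries had 287, 243 and 248 CPM, overlapping 0 h (-0.15, adjusted p = 0.239) but below 3 h, a fall of 0.51 (adjusted p = 3.1e-04). At 24 h HSPE1 had 231, 188 and 189 CPM, all below 0 h, and had fallen by 0.50 ± 0.0920 (adjusted p = 5.9e-04). It was the only 1 of the 10 genes to be called between 12 h and 24 h, a fall of 0.48 (adjusted p = 0.00360).

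HSPE1 is also short, at 0.95 kb, against 2.455 kb for HSPD1. With the length and GC trends removed it was 0.23 above 0 h at 3 h (adjusted p = 0.00134), 0.013 above at 6 h (adjusted p = 0.865) and 0.33 below at 24 h (log2 fold change -0.33, adjusted p = 3.3e-05). Its fall from 3 h to 6 h was 0.22 in that setting (log2 fold change -0.22, adjusted p = 0.00122), against 0.51 as counted. HSPD1 was 0.22 above 0 h at 6 h in that setting (adjusted p = 2.5e-05). The genes lie head to head on chromosome 2, with the annotated RefSeq starts of HSPD1 105 and 539 bases from that of HSPE1. The element printed above, at chr2:197500068-197500085, lies ahead of the HSPD1 start that is 539 bases from the start of HSPE1. It lies between these starts and so is ahead of the RefSeq start of HSPE1 as well, outside the HSPE1 window, which begins at chr2:197500129. By the GENCODE annotation HSPE1 begins at chr2:197499994, and the element lies inside its span. Relative to the other HSPD1 start it lies downstream. The ratio of HSPE1 to HSPD1 counts was 0.384 ± 0.0323 (SD, n = 3) at 0 h and 0.496 ± 0.0425 at 3 h, then 0.301 ± 0.0204 at 6 h and 0.283 ± 0.0224 at 24 h. The 0 h libraries overlapped none of these 3 times, and the exact two-sided permutation test gave p = 0.1 for each, the smallest possible. The annotated span of HSPD1 holds HSPE1 on the opposite strand, and whether the counting used strand is not given, so the division of reads between them is uncertain. Counts of both genes were not whole in 17 of 17 libraries, and pseudogene and read-through entries held 2.18 to 4.98% of the HSPE1 counts and 0.134 to 0.369% of those of HSPD1.

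**Figure D2:**
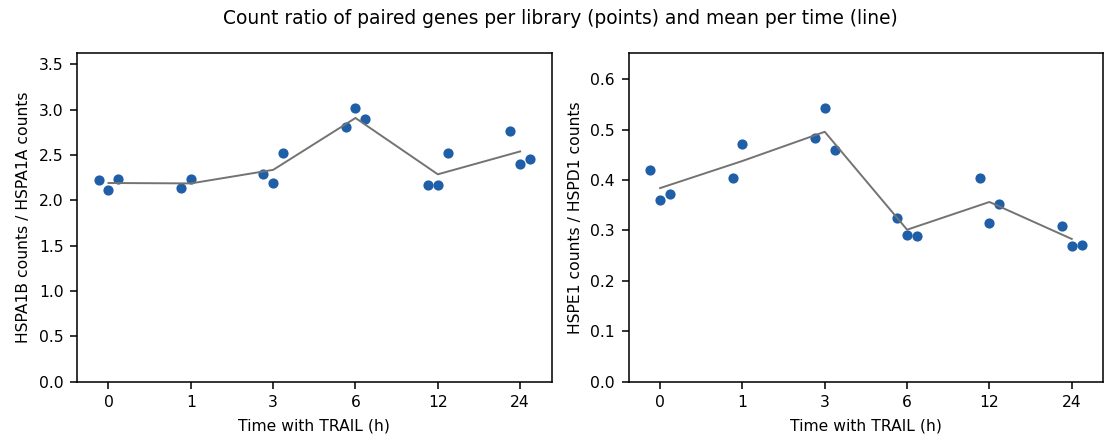
Count ratios of HSPA1B to HSPA1A (left) and of HSPE1 to HSPD1 (right) in each library, on axes starting at 0, with time in hours spaced evenly; points are libraries and lines join the means. The left ratio was highest at 6 h (mean 2.91) and the right ratio went from 0.496 at 3 h to 0.301 at 6 h.

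The comparisons with 0 h at the other times can be read against the counts over all genes. At 1 h 0 of 10 genes were called by edgeR, DESeq2 and limma-voom, and 0 had an unadjusted p below 0.05 in edgeR. At that time 0.26% of all genes were called higher and 0.0521% lower, and the median of the 10 was -0.068 against -0.0041 for all genes. At 3 h the 3 genes called stood against 9.04% of all genes called higher and 8.71% lower, with medians of 0.10 and -0.0041. HSPA1B at 3 h, higher by 0.21 ± 0.0684 (adjusted p = 0.0400), was lost when any 1 of the 3 libraries at 0 h or replicate 2 or 3 of 3 h was left out, with values from 0.17 to 0.22. At 12 h HSP90AA1, HSPH1 and HSPA1B were called, against 5.96% of genes higher and 6.48% lower, with medians of 0.14 and -0.0032. HSPA1B was not called there without replicate 1 or 2 of 0 h (0.25 and 0.26) or replicate 3 of 12 h (0.17). At 24 h HSPA8, HSPA1B, HSP90AA1 and HSPH1 were called higher, against 18% of all genes, and HSPE1 lower, against 17.1%, with medians of 0.095 and -0.0017.

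The calls of 2 genes at 24 h changed with a setting. HSP90AA1 was not called without replicate 1 of 0 h (0.23, adjusted p = 0.0543), and HSPH1 was not called without replicate 2 of 0 h (0.18, adjusted p = 0.0554). HSPH1 has the longest transcript of the 10, 5.191 kb, and with the length and GC trends removed its difference at 24 h was 0.036 (adjusted p = 0.566). In that setting HSPA1A (0.22, adjusted p = 0.00160) and DNAJB1 (0.15, adjusted p = 0.00433) passed at 24 h.

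**Figure D3:**
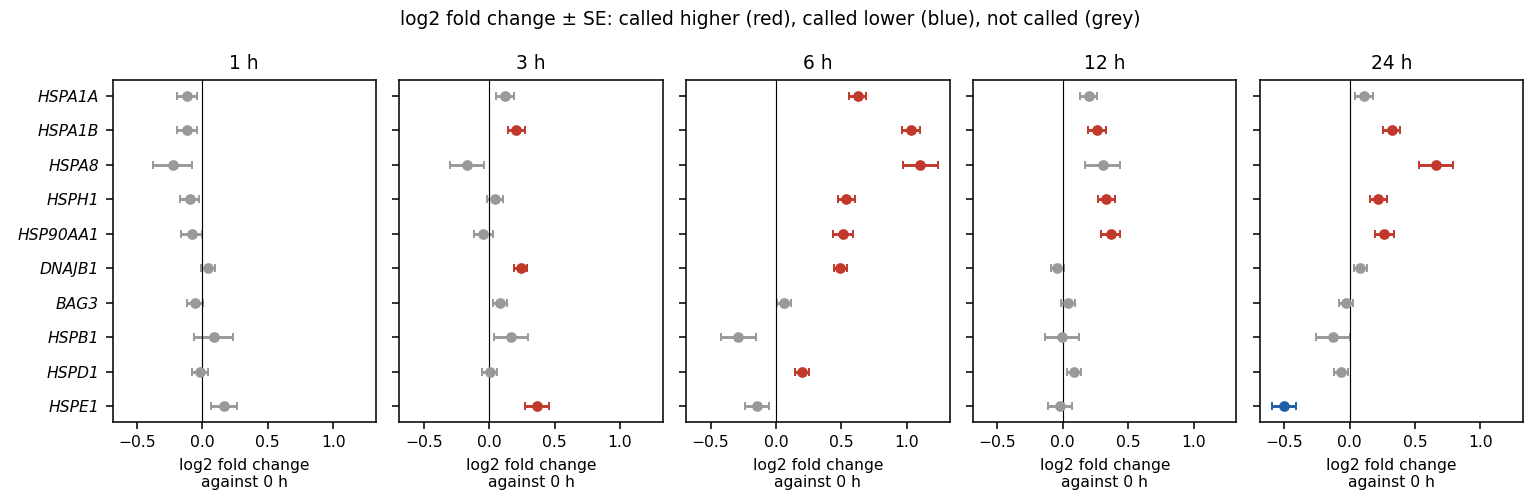
log2 fold changes against 0 h with standard errors, 1 panel for each later time; red points were called higher, blue lower and grey not called at an adjusted p below 0.05 in edgeR. The 6 h panel holds 7 red points, from 0.20 for HSPD1 to 1.10 for HSPA8, and the 24 h panel holds the only blue one, HSPE1 at -0.50.

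**Figure D4:**
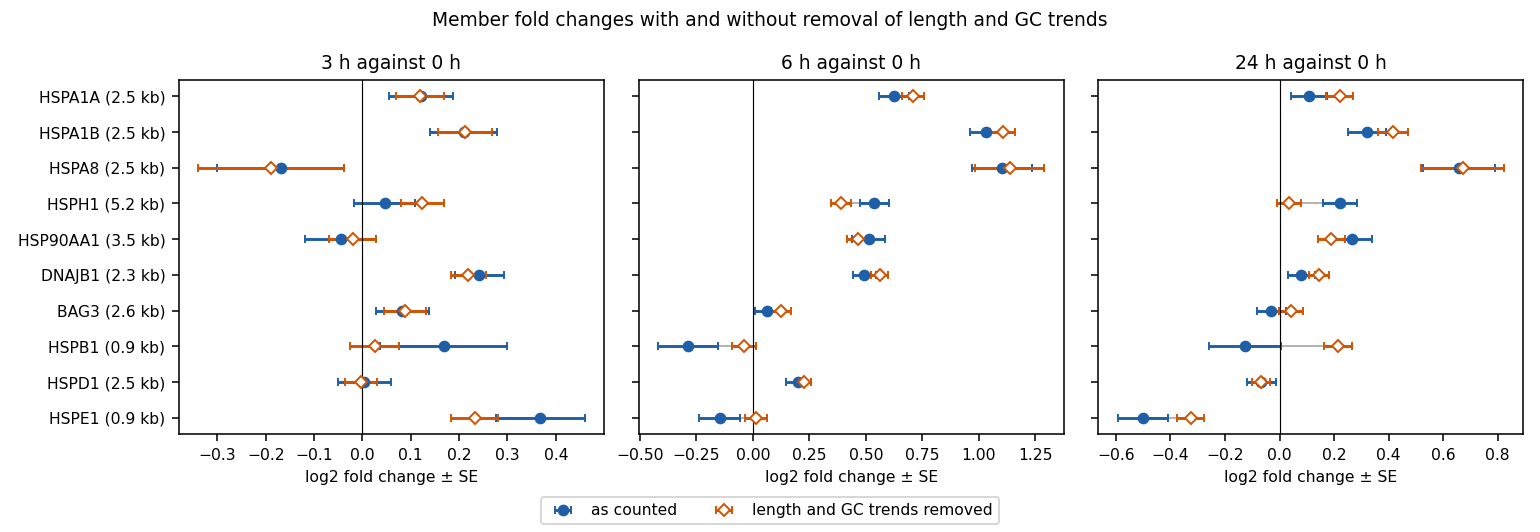
log2 fold changes ± SE against 0 h at 3, 6 and 24 h from the counts as they stand (filled blue) and with the length and GC trends of each library removed (open orange), with transcript length beside each gene. At 24 h HSPB1 moves from -0.13 to 0.21 and HSPH1 from 0.22 to 0.036, while HSPA8 at 6 h is at 1.10 and 1.14.

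Between neighbouring times, the step from 3 h to 6 h involved 9 of the 10 genes. HSPA8, HSPA1B, HSP90AA1, HSPA1A, HSPH1, DNAJB1 and HSPD1 were called higher, against 22.9% of all genes, and HSPB1 and HSPE1 lower, against 20.3%. The median of the 10 was 0.37, against -0.020 for all genes. From 6 h to 12 h HSPA8, HSPA1B, DNAJB1, HSPA1A (-0.43, adjusted p = 1.5e-04) and HSPH1 (-0.21, adjusted p = 0.0252) fell, against 11.9% of all genes called lower, and none of the 10 rose, against 8.7%. The call of HSPH1 was lost without replicate 2 or 3 of 6 h or replicate 1 or 3 of 12 h, with values from -0.20 to -0.18. It was also lost with upper-quartile scaling, library size as the only scaling and close replicates averaged. Over all 31 alternatives the HSPH1 values ran from -0.25 to -0.13. From 1 h to 3 h HSPA1B (0.33, adjusted p = 0.0162) and DNAJB1 (0.20, adjusted p = 0.0457) rose, against 3.17% of all genes called higher and 2.56% lower. Without replicate 2 of 3 h neither was called (0.29 and 0.17), and the call of DNAJB1 was lost under 18 of the alternatives run. From 12 h to 24 h HSPE1 alone was called, against 5.6% of all genes called lower and 6.42% higher.

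Removal of the length and GC trends changed further steps between neighbouring times. From 1 h to 3 h HSPA1A (0.23, adjusted p = 0.0106) and HSPH1 (0.19, adjusted p = 0.0132) were then also called higher. The rise of HSPH1 from 3 h to 6 h was 0.49 as counted and 0.27 in that setting (adjusted p = 7.1e-05). From 6 h to 12 h HSPD1 was then called lower (-0.20, adjusted p = 1.2e-04) and HSPB1 higher (0.24, adjusted p = 0.00139). From 12 h to 24 h HSPH1 (-0.19, adjusted p = 0.00448) and HSPD1 (-0.098, adjusted p = 0.0429) were called lower and DNAJB1 higher (0.16, adjusted p = 0.00390).

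Over all times together, 8 of the 10 genes were called, against 64.2% of all genes tested. The 2 that were not called were HSPB1 (adjusted p = 0.0779) and BAG3 (adjusted p = 0.207). Among the 15365 genes ranked by this p, DNAJB1 was 266th, HSPA1A 338th, HSPH1 418th, HSPA8 565th, HSP90AA1 713th, HSPE1 980th and HSPD1 6089th.

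Other chaperone genes were measured for comparison, as 8 lists with 54 genes, of which 52 had enough counts. CRYAB and HSPB6, small heat shock genes, had at most 1 and 4.53 counts in any library. At 6 h 13 of the 52 were called higher and 2 lower, against 16.9% and 13.2% of all genes, and their median log2 fold change was 0.045. Of the cytosolic J-domain genes 4 of 8 were higher and 0 lower, led by DNAJA1, a partner of HSP70 in protein folding and import, which went from 372 ± 9.56 to 498 ± 8.56 CPM (0.42, adjusted p = 2.2e-05). Of the HSP90 paralog and co-chaperone list 5 of 10 were higher and 0 lower, led by CHORDC1, a co-chaperone of HSP90, from 58.2 ± 3.23 to 89.6 ± 1.05 CPM (0.62, adjusted p = 2.5e-06). Of the BAG and nucleotide exchange genes 1 of 7 was higher, BAG5, from 43.4 ± 3.95 to 58.2 ± 4.01 CPM (0.42, adjusted p = 0.00185). Of the CCT subunits, which form the cytosolic chaperonin, 1 of 8 was higher, TCP1 by 0.17 (adjusted p = 0.0220). TCP1 was no longer called with upper-quartile scaling (0.10), nor without any 1 of replicates 2 and 3 of 0 h or any 1 of the 3 libraries of 6 h, with values from 0.15 to 0.18. Of the other HSP70 and HSP110 genes 0 of 6 were called in either direction. Several of these 6 had means of only 1.12 to 1.22 CPM at 0 h, where a change is easily missed.

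**Figure D5:**
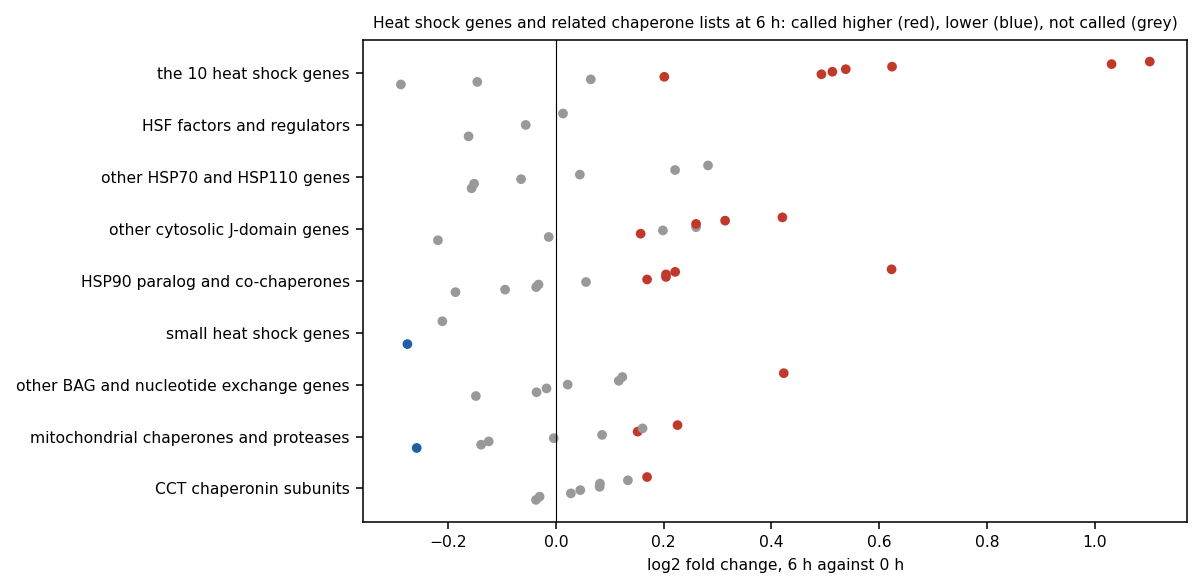
log2 fold change at 6 h against 0 h of the 10 genes (top row) and of 52 related genes in 8 lists; each point is a gene, red called higher, blue lower and grey not called. The top row reaches 1.10, and the highest point of any other list is CHORDC1 at 0.62.

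HSF1, the main transcription factor of the heat shock response, had 113 ± 4.80 CPM at 0 h and 114 ± 4.23 CPM at 6 h, and 0 of the 3 genes on its list were called at 6 h. With the length and GC trends removed, HSF1 was called higher at 6 h (0.16, adjusted p = 0.00340) and HSF2, a related factor, lower (-0.17, adjusted p = 0.0389). At 24 h HSF1 had 94.6 ± 3.15 CPM and had fallen by 0.26 on the log2 scale (adjusted p = 0.00449). With the length and GC trends removed that HSF1 value was -0.053 (adjusted p = 0.322). HSF2 was higher by 0.22 at 12 h (adjusted p = 0.0348), a call lost under 10 alternatives. Among them were the removal of length and GC trends (0.15, adjusted p = 0.0804) and leaving out any 1 library of 12 h (0.21 to 0.23). The call was also lost without replicate 2 (0.19) or 3 (0.22) of 0 h or replicate 1 of 3 h (0.22). Of the mitochondrial chaperones and proteases, 2 of 8 were higher and 1 lower at 6 h, and 1 was higher and 4 lower at 24 h. CLPX, the unfolding subunit of a matrix protease, was higher at 12 h (0.38, adjusted p = 0.00261), and HTRA2, a protease of the intermembrane space, was lower at 24 h (-0.33, adjusted p = 0.00293). That value for HTRA2 was -0.20 with the length and GC trends removed (adjusted p = 0.0204). CDC37, which brings kinases to HSP90, fell from 375 ± 17.9 CPM at 0 h to 288 ± 10.5 CPM at 24 h (-0.38, adjusted p = 5.2e-04), a difference of -0.20 with those trends removed (adjusted p = 4.5e-04). DNAJB2 fell by 0.35 at 24 h (adjusted p = 0.00463). In all, 4 of the 52 genes were called higher and 11 lower at 24 h, against 18% and 17.1% of all genes. With the length and GC trends removed 6 were called higher and 15 lower at 24 h, while the 6 h counts were 15 higher and 4 lower.

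Outside the 10 members, the genes with the most similar course were found by the root mean square difference of centred log2 CPM over the 17 libraries, among 8675 genes that were called over all times and had an average log2 CPM of at least 2. For HSPH1 these were HRH1 (0.0586), NUDCD1 (0.0699) and RAI14 (0.0751), where the median candidate differed by 0.277, and the member HSP90AA1 at 0.0636 lay between the first and the second of them. For HSPD1 they were SET (0.0287), DDX10 (0.0363) and HSPA9 (0.0426), where the median candidate differed by 0.218. HSPA9, the mitochondrial HSP70, had 501 ± 1.85 CPM at 0 h and 556 ± 4.79 CPM at 6 h and was higher by 0.15 (adjusted p = 0.0290). That call was lost under 10 of 31 alternatives, among them upper-quartile scaling (0.083), the removal of length and GC trends (0.036, adjusted p = 0.534) and leaving out any 1 library of 0 h or replicate 2 or 3 of 6 h (0.15 in each).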

How the data were processed

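The authors deposited 1 table of expected counts, estimated numbers of fragments per gene made with RSEM per the file name. The libraries were stranded and poly(A)-selected, per the labels' protocols. Reads were handled with cutadapt 1.18 and STAR 2.7.0f on hg38, per the submitters' processing notes. RSEM's version, the annotation and the strand setting are not given in the sources used here, so overlapping genes may share counts. Values that were not whole (10.8%) were rounded here.

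Libraries were scaled by TMM and filtered with filterByExpr, and a quasi-likelihood model with 1 mean for each time was fitted to all 17 libraries in edgeR 4.0.16 (R 4.3.3), with robust estimation and Benjamini-Hochberg adjustment. CPM, computed here from the deposited expected counts, are relative to the TMM-scaled total. Standard errors come from the coefficient and the F statistic. Positions and lengths are those of GENCODE on GRCh38. The length of a gene is that of its longest protein-coding transcript in the basic set, where it has one. In data simulated for 6 h against 0 h on 15365 genes, 66 of 100 genes changed by a log2 of 0.5 and 96 of 100 changed by 1 were recovered.

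Alternatives were other scalings and filters, DESeq2 1.42.0, limma-voom (limma 3.58.1), the replicate block, paralogs and pseudogenes summed, removal of each library's length and GC trends (splines), and each library left out. The text names all 10 members, HSF1 and, in each other list, at most the highest and lowest gene called against 0 h, plus the 3 genes most like HSPH1 and HSPD1. The members and lists were chosen with earlier results of these data known.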

Additional observations from a re-analysis of the deposited data

How the results depend on the processing

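The 35 called results of the 10 genes were recomputed under 31 alternatives, all of which were run. Of 1071 values, 1025 kept their call, 46 lost it and 0 changed sign. These values include fits without a library of neither time compared, and other settings that alter the fit little, so many could hardly change. Results not called in the main fit are not in this count. Among those, HSPB1 at 24 h against 0 h went from -0.13 to 0.21 with the length and GC trends removed. At 6 h the calls of HSPA1A, HSPA1B, HSPA8, HSPH1, DNAJB1 and HSP90AA1 held under each alternative run for them, with HSPA8 between 0.98 and 1.21 and HSPA1B between 0.96 and 1.11. The summing of pseudogenes matched no other entry with counts for HSP90AA1, HSPH1 and DNAJB1, so it could not test their calls. HSP90AB1 was not summed with HSP90AA1. At 3 h against 0 h, the count of 3 genes called ranged from 1 to 3 with 1 library left out, the lowest without replicate 2 of 0 h. At 12 h against 0 h, 5 genes were called with the length and GC trends removed, against 3. From 1 h to 3 h the count of 2 was 1 under upper-quartile scaling, library size as the only scaling, no filter and with close replicates averaged, 0 in a fit of these 2 times, 4 with the length and GC trends removed, and 0 to 2 with 1 library left out. From 6 h to 12 h the count of 5 was 8 with the length and GC trends removed. From 12 h to 24 h the count of 1 was 2 under upper-quartile scaling, library size as the only scaling, no filter, DESeq2 and a fit of these 2 times, 4 with the length and GC trends removed, and 1 to 2 with 1 library left out, the highest without replicate 1 of 0 h or of 24 h. The cause of these changes was not tested. With 1 of the libraries at 1 h left out, no test of 1 h was made.

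HSPA1B at 3 h also lost its call with library size as the only scaling (0.14), no filter (0.19) and close replicates averaged (0.20). The close replicates were 2 and 3 of 6 h and 2 and 3 of 24 h, which differed by more than sampling noise but less than other pairs. Upper-quartile scaling turned the split of all genes at 6 h from 2602 higher and 2025 lower to 1888 higher and 3047 lower, and of the 10 genes 6 were called, all higher. The genes named from the other lists were recomputed as alternatives chosen after seeing the data. At 6 h or 24 h TCP1, HSPA9, HSPA4L, HSPB11 and BAG6 lost a call without 1 library. Changes of a log2 of 0.5 or smaller can be missed at this number of libraries. In the simulation 66 of 100 genes changed by 0.5 and 96 of 100 changed by 1 were recovered, and smaller changes were not simulated. Only these genes out of 15365 were changed there, far fewer than were called at 6 h in the data. The shares recovered therefore need not hold for the 10 genes.

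Whether the replicate numbers pair the libraries is not stated, and these values do not settle it. Libraries with the same number had correlations of deviations between -0.199 and 0.211 over 40 pairs (median 0.011). Those with different numbers had values between -0.163 and 0.199 over 80 pairs (median -0.0086), and 10 of 17 libraries lay closest to their own number. With the replicate number as a block, the count of genes called from 1 h to 3 h was 1 in place of 2, and DNAJB1 had 0.20 there (adjusted p = 0.0552).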

Other observations

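The remaining genes that the naming rule picks from the chaperone lists had smaller or less steady differences from 0 h. HSPA4L, a cytosolic HSP110, had 38.7 ± 1.502 CPM (SD, n = 3) at 0 h, 30.6 ± 3.13 CPM at 3 h and 48.2 ± 5.12 CPM at 24 h. It was lower at 3 h by edgeR (log2 fold change -0.34, adjusted p = 0.0201) and higher at 24 h (0.32, adjusted p = 0.0123). At 3 h the call was lost without replicate 2 (-0.33) or 3 (-0.31) of 0 h or replicate 2 of 3 h (-0.26), and at 24 h without replicate 1 of 0 h (0.28) or replicate 2 of 24 h (0.25). With the length and GC trends removed, the value at 24 h was 0.046 (adjusted p = 0.486). HSPB11, a gene of the small heat shock list, was lower at 6 h (-0.28, adjusted p = 0.0243) and 24 h (-0.35, adjusted p = 0.00503) by edgeR, with ranges that overlapped those at 0 h. With the length and GC trends removed the values were -0.11 and -0.16, neither of them called, and at 6 h the call was also lost without replicate 1 (-0.20) or 3 (-0.26) of 0 h or replicate 2 (-0.27) or 3 (-0.22) of 6 h. BAG6 was higher at 24 h (0.16, adjusted p = 0.0170), a call lost without replicate 1 of 0 h or replicate 2 or 3 of 24 h (0.15 in each). CCT4, a subunit of the cytosolic chaperonin, was lower at 3 h (-0.18, adjusted p = 0.0462), and leaving out any 1 library of 0 h or replicate 1 or 2 of 3 h ended that call, with values from -0.20 to -0.15, as did leaving out any of 5 libraries of 6, 12 or 24 h (-0.18 in each).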
